A study of Rattus norvegicus with 4 samples.

Results

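The genes for 10 neuropeptide precursors of the forebrain were followed in cultured rat cortical neurons depleted of Cmtr1: Sst, Npy, Vip, Crh, Penk, Pdyn, Tac1, Cck, Nts and Grp. They were chosen by name from 34235 gene names on the array, and 12 probes carried 1 of the 10 names, with 2 probes each for Penk and Nts. Cortical neurons came from Sprague Dawley rat embryos of both genders at E18.5 (embryonic day). They were infected on day 2 in vitro with lentivirus, either the shCTL control or shCM1, which targets Cmtr1 mRNA, and total RNA was collected on day 7. Both groups were thus infected and cultured alike, and differed in the shRNA. Titles spell the groups siCTL and siCM1 while the shRNA label has shCTL and shCM1, and the sequence and number of the shRNAs are not given in the sources used here. Cmtr1 encodes the cap methyltransferase that modifies the first transcribed nucleotide of mRNA.

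Each group held 2 single-colour Agilent arrays, from 2 independent experiments. Replicate 1 of both groups lay on slide 1 and replicate 2 of both groups on slide 2, so each slide gives a comparison of shCM1 with shCTL of its own. Levels are given as log2 of the spot signal relative to the 75th percentile of the array, so that a level of 0 equals that percentile. A level is compared between arrays for the same probe, never between probes. The arrays held 41012 gene probes, of which 83.97% to 90.38% were well above background, and no gene spot was saturated. All 12 neuropeptide probes were well above background on all 4 arrays. The Cmtr1 probe was at -1.43 and -1.86 in shCTL and at -3.46 and -3.53 in shCM1, which is 27.7% of the control level.

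Neuropeptides are cut from larger precursors inside dense core vesicles. Prohormone convertases cleave at pairs of basic residues, and further enzymes trim and amidate the fragments, which then act on G protein coupled receptors. In the cortex, Sst, Npy, Vip and Crh are known as peptides of GABAergic interneurons, Cck is made by interneurons and by many pyramidal cells, and Penk, Pdyn and Tac1 are typical of striatal projection neurons as well as of scattered cortical cells.

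The probes themselves show what was measured, and 3 that hold coding sequence of these precursors, in full or in part, are shown here. They are printed 5′ to 3′ as the array design gives them, with positions in rn4, the build that the file headers name. Capitals mark the stop codon in the Sst probe, the dibasic pair and the opioid core behind it in the Penk probe, and the pairs of basic residues in the Nts probe.
Sst probe: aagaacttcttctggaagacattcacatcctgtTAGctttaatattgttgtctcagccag
Penk probe, base 1075: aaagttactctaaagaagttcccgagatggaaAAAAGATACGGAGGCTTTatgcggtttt
Nts probe, base 494: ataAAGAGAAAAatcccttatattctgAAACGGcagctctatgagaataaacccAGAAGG
The Sst probe (chr11:79126027-79126086, plus strand) read 11 codons ahead of the stop, which encode the carboxyl end of mature somatostatin, and 24 bases behind it. The Penk probe at base 1075 of the transcript (chr5:17509637-17509696, minus strand) held Lys-Arg followed by Tyr-Gly-Gly-Phe, the core shared by all enkephalins. The Nts probe at base 494 (chr7:40474898-40474957, minus strand) read through neuromedin N into the start of neurotensin, with a dibasic pair on either side of neuromedin N.

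The other 9 probes were the following. Npy was read at chr4:78045125-78045184, Vip at chr1:36369392-36369451, Tac1 at chr4:32657311-32657369 and Grp at chr18:62176219-62176278, all on the plus strand. Crh was read at chr2:104764253-104764312, Cck at chr8:126492829-126492888 and Pdyn at chr3:117291061-117291120, all on the minus strand. The other Nts probe lay at base 593 of the same transcript (chr7:40474799-40474858), and the other Penk probe at base 130 (chr5:17514076-17514135). Sst, Npy, Crh, Tac1 and Cck were each spotted 10 times per array and the other probes once.

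Among the 10 genes, Grp and Crh were lower in shCM1 on both slides by more than 1.5-fold, to 44.4% and 42.8% of control, and no member was higher by that much on both slides. Vip, Penk (base 1075) and Pdyn were modestly higher on both slides, by 1.32-fold, 1.31-fold and 1.51-fold. Sst and Nts lay higher by smaller amounts, and Npy, Cck and Tac1 went opposite ways on the 2 slides. By limma over all 36700 probes kept, without the slide in the model, 0 of 12 neuropeptide probes passed an adjusted p of 0.05, as did 0% of all probes, while 1110 probes had an unadjusted p under 0.05. With the slide as a block, limma called 3 neuropeptide probes higher (Vip, Penk base 1075, Pdyn), against 3.2% of all probes, and 2 lower (Crh, Grp), against 2.69% of all probes. An exact permutation test of 2 arrays against 2 cannot go below p = 0.33. The block leaves 1 residual degree of freedom per probe, so these calls lean on the spread shared over the whole array. Without the trend of that spread with intensity the block called 0 members and 0 of all 36700 probes. Without the filter on dim probes it called Crh and Grp but 0 members higher, beside 107 higher and 248 lower of all 41012 probes.

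**Figure D1:**
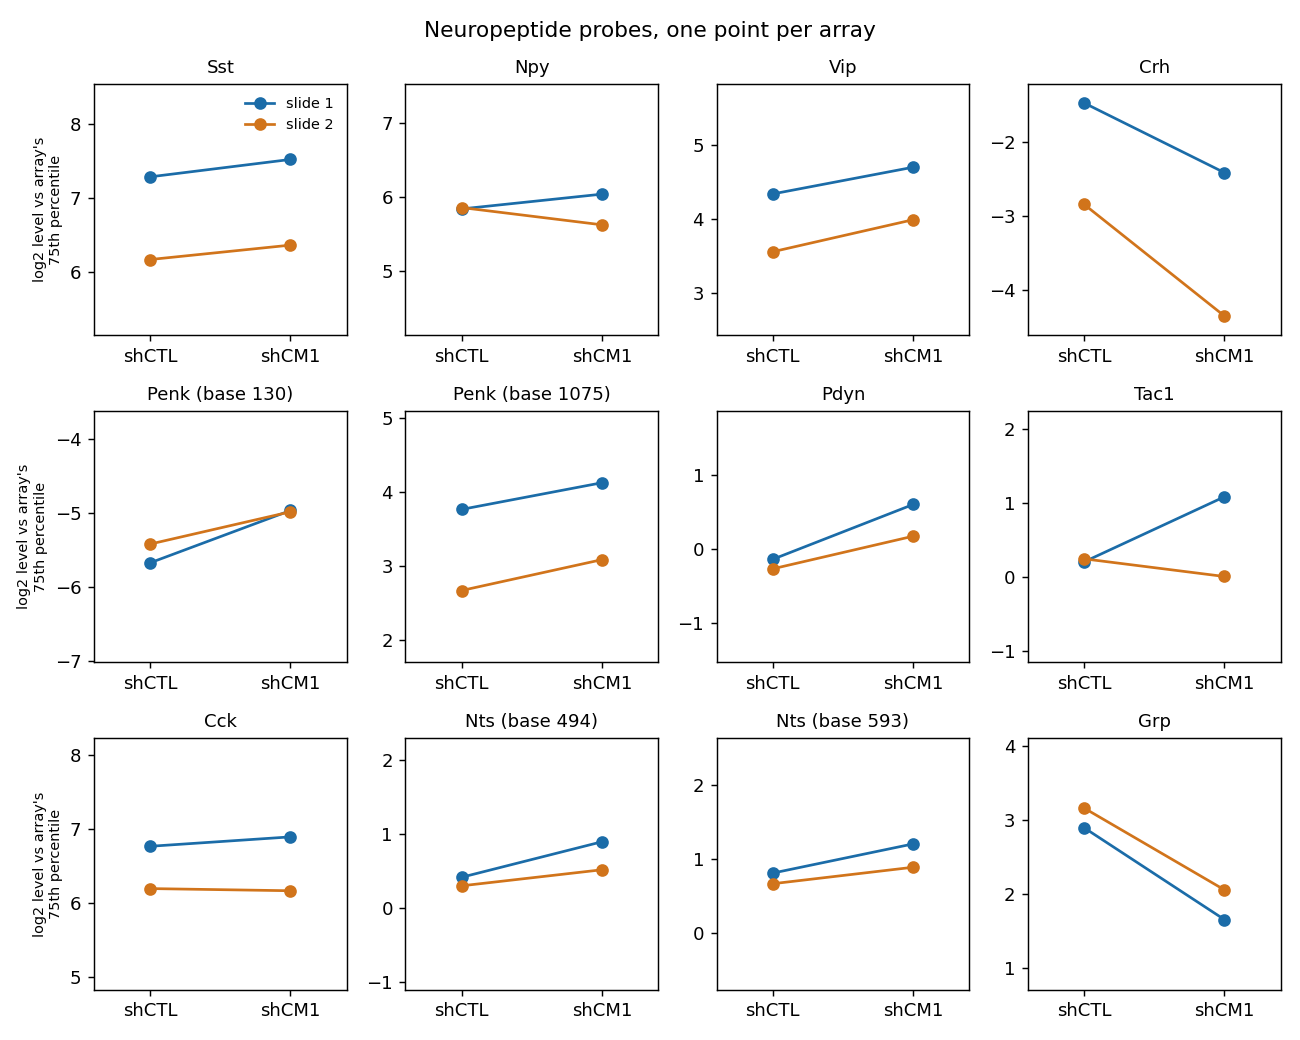
Log2 level of each neuropeptide probe relative to the array's 75th percentile (vertical axis, 3.4 log2 units high in every panel) in shCTL and shCM1, 1 point per array, with a line joining the 2 arrays of a slide. The lines run downward on both slides for Crh and Grp, upward on both for Vip, Pdyn, Sst, both Penk and both Nts probes, and cross or split for Npy, Tac1 and Cck.

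Sst encodes somatostatin, an inhibitory peptide that marks a large class of interneurons. Its level was 7.28 and 6.16 in shCTL and 7.52 and 6.36 in shCM1, in the order of slides 1 and 2. The slides lay further apart than the groups: slide 2 was 1.12 log2 units below slide 1 in shCTL and 1.16 below in shCM1, and the groups overlapped. Within the slides, shCM1 was higher by 0.23 and 0.19, a mean difference of 0.21 (SE 0.50, n = 2 arrays per group; limma adjusted p = 0.99993). With the slide as a block the limma adjusted p was 0.0843 (SE 0.07). The repeated spots of the shCM1 array overlapped those of the shCTL array on both slides (10 spots used per array on slide 1 and 9 on slide 2). Even so, each spot was higher in shCM1 than the spot at the same position on the shCTL array, on both slides. In bulk RNA of these cultures, more or fewer cells of a type and more or less RNA per cell cannot be told apart.

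Npy encodes neuropeptide Y, made by interneurons that often also make somatostatin. It was at 5.84 and 5.86 in shCTL and at 6.04 and 5.63 in shCM1. The shCM1 arrays lay on either side of the 2 controls. The difference was 0.20 on slide 1 and -0.23 on slide 2, with a mean of -0.02 (SE 0.17 without the block). In limma with the slide as a block the adjusted p was 0.935 (SE 0.09, 95% interval -0.21 to 0.18). The spots of the 2 arrays did not overlap on either slide, so the opposite signs were larger than the spread of spots within an array.

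Vip encodes vasoactive intestinal peptide, which marks interneurons that mostly contact other interneurons. It was at 4.34 and 3.56 in shCTL and at 4.70 and 3.99 in shCM1. As for Sst, the slide 2 arrays were the low ones in both groups, by 0.78 and 0.71, and the groups overlapped. The differences within the slides were close to each other, 0.36 and 0.43, with a mean of 0.40 (SE 0.35 without the block). The limma adjusted p was 0.00847 (SE 0.08) with the slide as a block. Leaving out 1 array breaks a pair, and the difference was then 0.79 without replicate 1 of shCTL, 0.75 without replicate 2 of shCM1, 0.042 without replicate 1 of shCM1 and 0.006 without replicate 2 of shCTL.

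Crh encodes corticotropin releasing hormone, the peptide that drives the pituitary stress axis and is also made by cortical interneurons. It was at -1.47 and -2.84 in shCTL and at -2.41 and -4.35 in shCM1. The control of slide 2 lay below the shCM1 array of slide 1, so the groups overlapped, while within each slide shCM1 was the lower array. Crh was at 52.1% of control on slide 1 and 35.2% on slide 2, a mean log2 difference of -1.22 (SE 0.75 without the block). The limma adjusted p was 2.11e-04 (SE 0.16) with the slide as a block. All spots of the shCM1 array lay below all spots of the shCTL array on both slides. Crh was dim, with signals of 235.3 and 105.3 in shCTL and 112.0 and 36.5 in shCM1, and with normexp background correction, which lifts low signals by an offset of 50, the differences were -0.65 and -0.80. Leaving out 1 array breaks a pair and sets arrays of different slides against each other, so the slide shift then enters the difference. The difference was then -0.26 without replicate 2 of shCM1 and -0.54 without replicate 1 of shCTL. It was -1.91 without replicate 2 of shCTL and -2.19 without replicate 1 of shCM1.

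**Figure D2:**
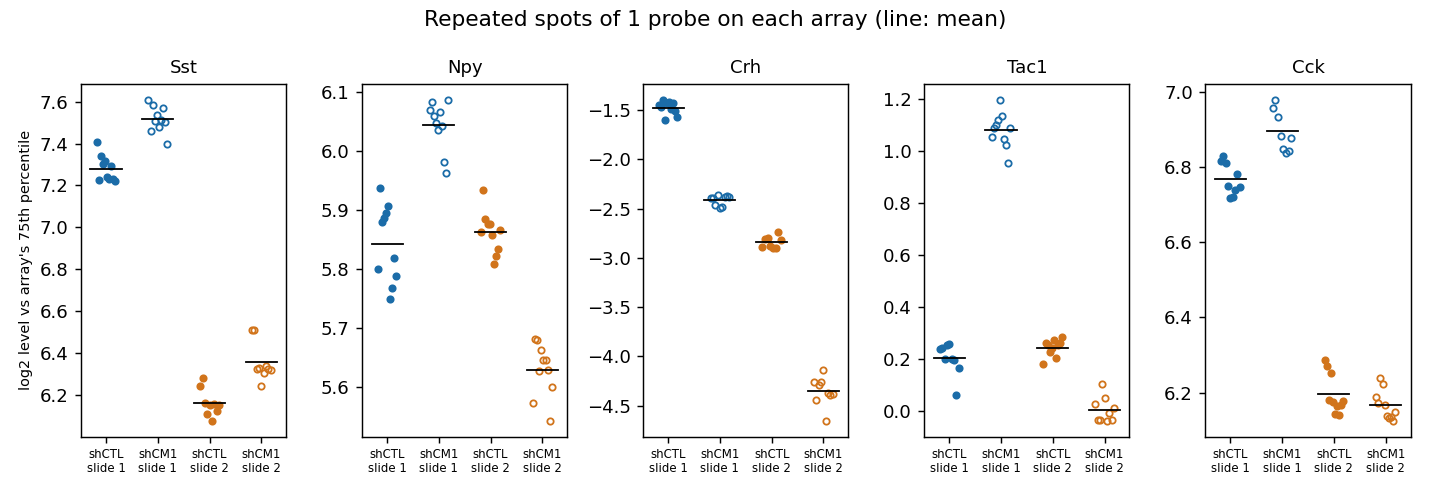
Log2 level of each repeated spot (points) and their mean (line) for the 5 neuropeptide probes spotted 10 times (8 to 10 spots used after outlier spots were left out), on each of the 4 arrays; filled points are shCTL, open points shCM1, and each panel has its own vertical scale. Crh spots separate the groups in the same direction on both slides, Npy and Tac1 spots separate them in opposite directions, and Sst spots overlap.

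Spots of 1 array share its RNA, so their SD, 0.03 to 0.14 log2 units over the 5 probes, measures the array and not the cultures.

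Penk and Pdyn encode the opioid precursors proenkephalin and prodynorphin, whose products act mainly on delta and mu receptors (enkephalins) and on kappa receptors (dynorphins). The Penk probe at base 1075, printed above with its opioid core, was at 3.77 and 2.67 in shCTL and at 4.13 and 3.09 in shCM1. Both arrays of slide 2 lay below both of slide 1, by 1.10 in shCTL and 1.04 in shCM1. The differences within the slides were 0.36 and 0.42, with a mean of 0.39 (SE 0.48 without the block). In limma with the slide as a block the adjusted p was 0.0122 (SE 0.08). The difference was 0.94 without replicate 1 of shCTL, 0.91 without replicate 2 of shCM1, -0.13 without replicate 1 of shCM1 and -0.16 without replicate 2 of shCTL.

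The other Penk probe, near the 5′ end of the transcript, was very dim, with signals of 12.8 and 17.7 in shCTL and 19.1 and 23.6 in shCM1. Its levels were -5.67 and -5.41 in shCTL and -4.96 and -4.98 in shCM1, and the groups did not overlap. The mean difference was 0.57 (SE 0.31 without the block), and it was 0.14 after normexp background correction. In limma with the slide as a block the adjusted p was 0.228 (SE 0.27). This probe did not show the shift between slides of the other Penk probe: slide 2 was 0.25 above slide 1 in shCTL and 0.02 below it in shCM1.

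Pdyn was at -0.14 and -0.27 in shCTL and at 0.60 and 0.17 in shCM1. Both shCM1 arrays lay above both controls. It was 1.67-fold higher on slide 1 and 1.36-fold on slide 2, a mean log2 difference of 0.59 (SE 0.20; limma adjusted p = 0.00482 with the slide as a block). It was 0.38 without replicate 1 of shCM1 and 0.80 without replicate 2 of shCM1.

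Tac1 encodes the precursor of substance P and neurokinin A. Its level was 0.20 and 0.24 in shCTL and 1.08 and 0.01 in shCM1. The 2 controls lay together and the shCM1 arrays on either side of them. The difference was 0.88 on slide 1 and -0.24 on slide 2, with a mean of 0.32 (SE 0.36 without the block). In limma with the slide as a block the adjusted p was 0.288 (SE 0.17). As for Npy, the spots of the 2 arrays did not overlap on either slide.

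Cck encodes cholecystokinin, among the most abundant cortical peptides. It was at 6.77 and 6.20 in shCTL and at 6.90 and 6.17 in shCM1. Slide 2 was the low one in both groups, and the groups overlapped. The difference was 0.13 on slide 1 and -0.03 on slide 2, a mean of 0.05 with a 95% interval of -0.11 to 0.21 with the slide as a block (limma adjusted p = 0.737). A further probe, described in the file as a partial cholecystokinin mRNA but named S70690 there and so outside the 12, had a difference of -0.05.

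Nts encodes neurotensin and neuromedin N. The probe at base 494 was at 0.41 and 0.30 in shCTL and at 0.89 and 0.51 in shCM1. The probe at base 593 was at 0.80 and 0.66 in shCTL and at 1.20 and 0.88 in shCM1. On both probes both shCM1 arrays lay above both controls. The mean differences were 0.35 (SE 0.19) and 0.31 (SE 0.18) without the block. The limma adjusted p with the slide as a block was 0.0621 (SE 0.105) and 0.0792 (SE 0.099). Without replicate 1 of shCM1 the differences were 0.16 and 0.15, and without replicate 2 of shCM1 they were 0.54 and 0.47. These probes read 1 transcript and are not independent.

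Grp encodes gastrin releasing peptide, which signals through the bombesin receptor family and is known in cortical pyramidal cells. It was at 2.89 and 3.16 in shCTL and at 1.65 and 2.06 in shCM1. Both shCM1 arrays lay below both controls, and the slides were 0.27 and 0.40 apart in the 2 groups, less than the groups. Grp was at 42.3% of control on slide 1 and 46.5% on slide 2, a mean log2 difference of -1.17 (SE 0.20 without the block). The limma adjusted p was 1.65e-06 (SE 0.09) with the slide as a block. Leaving out any 1 array moved the difference between -1.37 and -0.97. Of all probes kept, 0.101% had a difference at or below that of Grp.

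Of the 12 probes, 7 were higher in shCM1 within both slides, against 44.2% of all probes, and 2 were lower within both, against 22.6% of all probes. The 7 were Sst, Vip, Pdyn, both Penk and both Nts probes, so they stand for fewer genes than probes. At 1.5-fold or more within both slides, 0 of 12 were higher, against 1.67% of all probes, and 2 were lower (Crh and Grp), against 0.6% of all probes. The median difference over the 12 probes was 0.31, beside 0.08 over all probes. The 75th percentile scaling thus left the median over all probes slightly above 0, and with quantile normalization the median over all probes was 0.01.

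**Figure D3:**
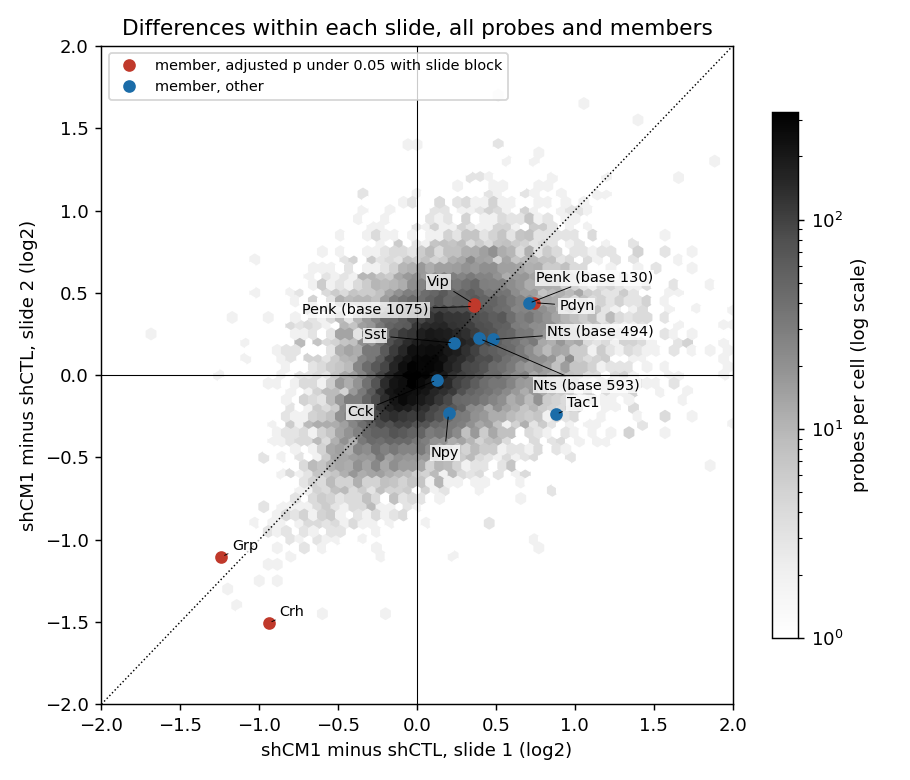
Difference of shCM1 minus shCTL on slide 1 (horizontal axis, log2) and slide 2 (vertical axis, log2) for all probes kept (grey, number per cell on a log scale) and for the 12 neuropeptide probes (red where limma's adjusted p with the slide as a block was under 0.05, blue otherwise); probes past 2 log2 units on either axis are not drawn. Grp and Crh lie far down the diagonal, and Tac1 and Npy lie in the quadrant of opposite signs.

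The 6 ways of scaling the arrays kept the sign of each difference within a slide for 11 of the 12 probes. The exception was Cck on slide 2, at -0.03 with the 75th percentile and at 0.07 with quantile normalization. The mean difference of Npy changed sign, to 0.02 with quantile normalization, 0.04 in the authors' value table and 0.07 with cyclic loess.

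**Figure D4:**
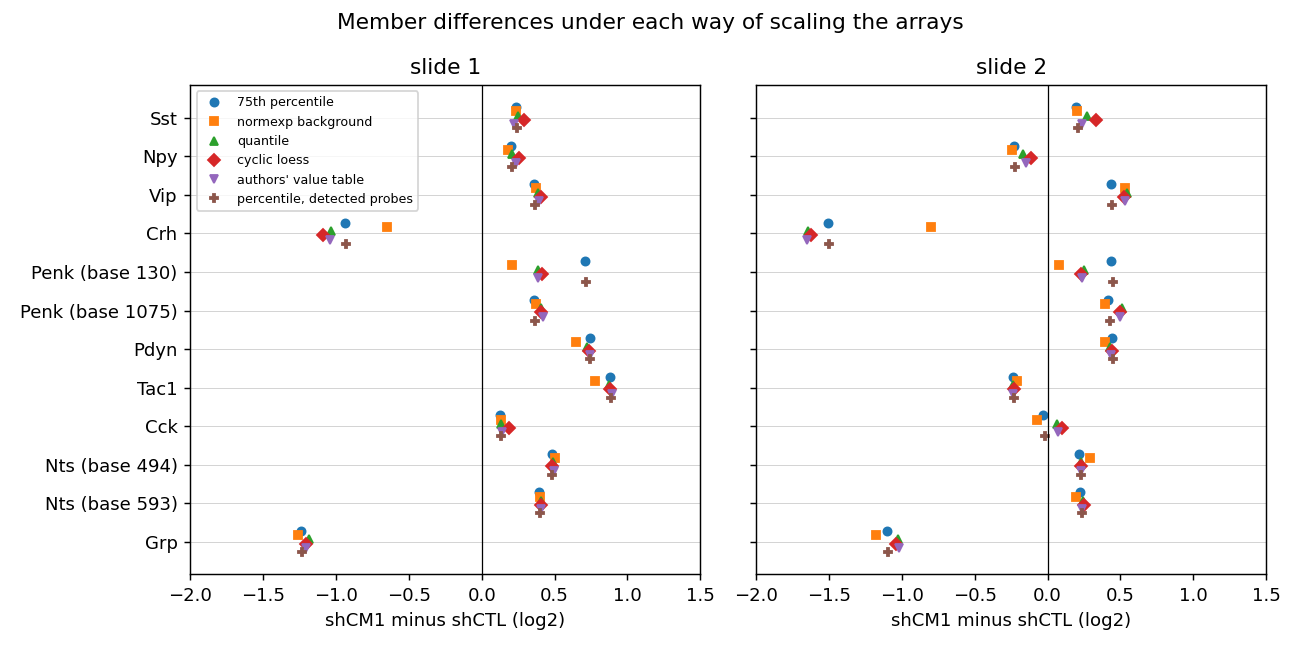
Difference of shCM1 minus shCTL (horizontal axis, log2) of each neuropeptide probe on slide 1 and slide 2 under 6 ways of scaling (symbols). Crh and the dim Penk probe move toward 0 with normexp background correction, and the Grp symbols stay between -1.26 and -1.19 on slide 1 and between -1.18 and -1.02 on slide 2.

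Promoter sequence was available for 7 of the 10 genes in the RefSeq table of GRCr8 (Vip, Pdyn, Tac1, Npy, Nts, Sst and Grp). The windows of 300 bases run from 250 bases before to 50 after the gene's start. Both strands were searched for the cAMP response element TGACGTCA, its core TGACG, the AP-1 site TGANTCA and the TATA motif TATAAA, because peptide genes are classical targets of cAMP and activity signals. The full element holds the core on both strands. The matches to the element are shown 5′ to 3′ on the strand of the gene with 10 bases on either side, and capitals mark the match.
Sst, GRCr8 chr11:90461538-90461565, plus strand: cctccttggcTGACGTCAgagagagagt
Vip, GRCr8 chr1:44470373-44470397, plus strand: atcaccactgTGACGtctttcgagg
Grp, GRCr8 chr18:61658559-61658583, plus strand: tatagggagaCGTCAgtgtgctcag
Tac1, GRCr8 chr4:36645367-36645391, plus strand: cctaaaattgCGTCAtttcgaaccc
Nts, GRCr8 chr7:39461045-39461069, minus strand: tagggaagatCGTCActttcaatca
The full element was in 1 of 7 windows (Sst) and in 1.83% of all 33469 promoters. The core was in 5 of 7 and in 21.2% of all promoters. The AP-1 site was in 1 of 7 (Nts) and in 7.33% of all, and TATAAA in 3 of 7 (Grp, Pdyn and Vip) and in 14.2% of all. Of the genes with the core, Sst, Vip and Nts were higher on both slides, Grp was lower on both, and Tac1 had opposite signs. Among them, Vip was called higher and Grp lower with the slide as a block. A link of the core with the differences was not tested.

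Related genes were described from lists chosen with earlier results of these data known, with 1 probe per gene, the brightest. No gene of any list was called without the block, so the counts that follow are limma calls with the slide as a block. Of all probes, the block called 3.2% higher and 2.69% lower, and the median difference over all probes was 0.08. Without the intensity trend the block called no gene of any list, and 0 of all probes. With no filter on dim probes it called genes of the inhibitory, excitatory, microglial and endothelial lists alone, and so 0 for peptide processing, for receptors, for other neuropeptides and for activity-induced genes. As for the members, leaving out 1 array breaks a pair of a slide. Of 15 genes for peptide processing and granins, 4 were called among the higher and 1 among the lower in the block fit, with a median difference of 0.14. The higher ones were Scg2 (secretogranin II, 0.46), Scg5 (the chaperone of a prohormone convertase, 0.34), Vgf (a granin-like precursor, 0.40) and Pam (the amidating enzyme, 0.32). The lower one was Cadps, which primes dense core vesicles for release, at -0.49. All 4 higher genes moved with single arrays. Without replicate 1 of shCM1 they were at 0.05 (Scg2), 0.01 (Scg5), 0.02 (Pam) and -0.22 (Vgf). Without replicate 2 of shCTL they were at -0.02 (Scg2), 0.11 (Scg5), 0.16 (Pam) and 0.07 (Vgf). Without replicate 2 of shCM1 they were at 0.87, 0.67, 0.63 and 1.02, and without replicate 1 of shCTL at 0.94, 0.56, 0.49 and 0.73, in the same order. Cadps was at -0.15 without replicate 2 of shCM1, -0.28 without replicate 1 of shCTL and -0.82 without replicate 1 of shCM1. With normexp 2 of the 15 were called higher and 1 lower, and with quantile normalization 7 and 1. Of all probes, 635 and 787 were called with normexp and 545 and 808 with quantile normalization, against 1176 and 988.

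Of 23 peptide receptor genes, 1 was called higher and 0 lower: Vipr2, a receptor for VIP, at -3.24 and -3.44 in shCTL and -2.60 and -2.96 in shCM1, a difference of 0.56 (limma adjusted p = 0.0357). It was not called after quantile normalization (adjusted p = 0.138). The median over the receptors was 0.14 and went to -0.04 with quantile normalization. Of 25 other neuropeptide genes, 0 were called in either direction; those with the smallest p were Pnoc, the nociceptin precursor (0.30), and Tac4 (0.32), and 1 was called higher after quantile normalization.

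**Figure D5:**
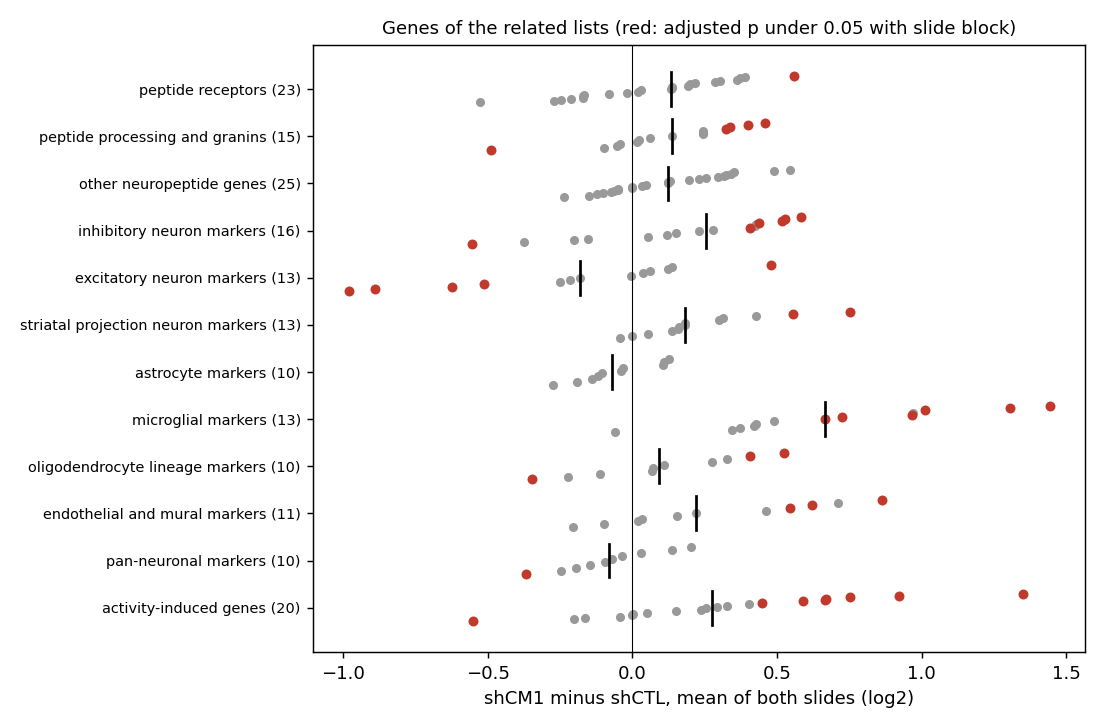
Mean difference of shCM1 minus shCTL over both slides (horizontal axis, log2) for each gene of the related lists, with the number of measured genes in brackets; the black bar is the list's median, and red points are genes with a limma adjusted p under 0.05 with the slide as a block. Microglial markers have the highest median, 0.67, and excitatory neuron markers the lowest, -0.18. With normexp background correction, not drawn, these medians were 0.28 and -0.04, and the lowest was that of pan-neuronal markers, -0.11.

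Markers of the cells that make these peptides were read beside them. Of 16 inhibitory neuron markers, 5 were called higher and 1 lower, with a median of 0.25. The homeobox gene Dlx5 (0.58), the GABA-synthesising enzymes Gad1 (0.52) and Gad2 (0.53), and Dlx1 (0.44) were among the higher ones. Without replicate 1 of shCM1, Gad1 was at 0.12 and Gad2 at 0.26. Without replicate 2 of shCTL, Gad1 was at 0.17 and Dlx5 at 0.35. Gad1 was at 0.92 without replicate 2 of shCM1 and 0.87 without replicate 1 of shCTL, and Gad2 at 0.79 without replicate 2 of shCM1. The summed level of the list, in multiples of the array's 75th percentile signal, was 113.0 and 80.1 in shCTL and 111.9 and 78.6 in shCM1, so it was lower on slide 2 in both groups, as were Sst and Vip.

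Of 13 excitatory neuron markers, 1 was called higher and 4 lower, with a median of -0.18. That median was -0.04 with normexp background correction. Camk2a, the calcium-dependent kinase of excitatory neurons (-0.98), Rorb, a layer 4 transcription factor (-0.89), and Neurod6 (-0.62) were among the lower, and Bcl11b, a factor of deep layer and striatal neurons, was higher at 0.48. The summed level was 74.7 and 69.0 in shCTL and 69.5 and 64.1 in shCM1. Of 13 striatal projection neuron markers, 2 were called higher, Isl1 (0.75) and Six3 (0.56), and 0 lower. Their summed level was 15.0 and 10.1 in shCTL and 17.6 and 10.9 in shCM1, higher in shCM1 on both slides, as were Penk and Pdyn. The part of these cell types in the peptide differences was not tested.

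Of 10 pan-neuronal markers, 0 were called higher and 1 lower (Tubb3, -0.37), which was at -0.11 without replicate 2 of shCM1, -0.22 without replicate 1 of shCTL and -0.62 without replicate 1 of shCM1. Of 13 microglial markers, 6 were called higher and 0 lower, led by Lyz2 (1.45), Tyrobp (0.97), Fcer1g (1.01), Aif1 (1.30) and Cd68 (0.67), with a summed level of 2.35 and 2.06 in shCTL and 3.76 and 2.88 in shCM1. Aif1 was at 0.81 without replicate 1 of shCM1, and Cd68 at 0.36 without replicate 1 of shCTL. The probes of Aif1 (levels of -4.91 and -5.42 in shCTL) and Lyz2 (-3.51 and -3.46) were dim. The median of the microglial list was 0.67, and 0.28 with normexp background correction. Of 11 endothelial and mural markers, 3 were called higher (Dcn, 0.86, Col1a2, 0.54, and Pdgfrb, 0.62) and 0 lower. Without replicate 1 of shCTL, Dcn was at 0.37 and Pdgfrb at -0.10. Without replicate 2 of shCM1 they were at 0.31 and 0.27, without replicate 1 of shCM1 at 1.41 and 0.97, and without replicate 2 of shCTL at 1.35 and 1.34. Of 10 oligodendrocyte lineage markers, 2 were called higher, Mbp (0.52) among them, and 1 lower, Cspg4 (-0.35), which was at -0.20 without replicate 1 of shCM1 and -0.23 without replicate 2 of shCTL. Of 10 astrocyte markers, 0 were called in either direction; those with the smallest p were Aldh1l1 (-0.28) and Slc1a3 (0.13).

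Of 20 genes induced by neuronal activity, 7 were called higher and 1 lower, with a median of 0.27. Fos was at -0.25 and -0.89 in shCTL and at 0.31 and 0.39 in shCM1, so that both shCM1 arrays lay above both controls, with a difference of 0.92. Junb (0.75), Egr3 (0.67) and Arc (0.67) were higher too, and Inhba, the activin subunit, was lower at -0.55. Without replicate 2 of shCTL, Fos was at 0.60, Junb at 0.41 and Arc at 0.25, and without replicate 1 of shCTL Arc was at 1.08. After quantile normalization 3 were called higher and 1 lower, and after cyclic loess 1 and 0. The calls over all probes fell as well, from 1176 and 988 to 545 and 808 with quantile normalization and 369 and 603 with cyclic loess.

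Among the probes whose centred levels over the 4 arrays lay nearest to those of Grp, by Euclidean distance out of 19469 probes compared, were Ctsc (distance 0.15), Eif4ebp2 (0.26), Api5 (0.28) and Scd2 (0.30). Ctsc was at -1.84 and -1.44 in shCTL and at -3.04 and -2.76 in shCM1. As for Grp, both of its shCM1 arrays lay below both controls, and slide 2 was the higher slide in each group. This likeness follows from how Ctsc was picked, by its distance to Grp over these same 4 arrays.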

How the data were processed

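Per the file headers, the authors scanned each array and extracted spots with Agilent Feature Extraction 10.7.3.1; the deposited processed signal is a spot intensity on a linear scale, with background already subtracted. A deposited value table of the authors holds intensity values that followed the scanner values across probes (r of at least 0.9998 on the log2 scale); its scaling is not stated. The steps that were computed here start from the scanner signal. Control spots and outlier spots were left out, and spots of a probe were averaged on the linear scale. Each array's 75th percentile over probes was then subtracted on the log2 scale. A probe was kept if it stood well above background on 2 or more of the 4 arrays (36700 probes). limma 3.58.1 in R 4.3.3 (lmFit, eBayes with an intensity trend) gave two-sided p-values, adjusted by Benjamini-Hochberg over all probes kept, threshold 0.05; the script was tested on simulated data. Slides are those named in the headers and match the replicate numbers. Deviations from the group means of same-numbered arrays correlated at r = 0.71 over probes, and the first principal component, with 65.1% of the variance, separated the slides. The labels do not say whether the 2 experiments used separate litters, so p-values measure the spread between these arrays. Array number limits the precision. The named genes were all 10 members, up to 5 genes per list called with the slide as a block by smallest p (the 2 with the smallest p where none was), the 5 probes nearest the member with the largest smaller within-slide difference, and Cmtr1; S70690 was added after its values were seen. Members and lists were chosen with earlier results of these data known. Protein sequences, and promoters of Crh, Penk and Cck, were not used here. A few genes that the naming rule gives are not reported here, but stay in the counts.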

Additional observations from a re-analysis of the deposited data

How the results depend on the processing

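Without the slide as a block, 0 neuropeptide probes were called in either direction under all settings tried, leaving out each array in turn included (lowest 0, highest 0). With the slide (the replicate number) as a block, 3 were called higher and 2 lower. The count of higher probes was 4 with quantile normalization, 4 with cyclic loess, 4 with normexp, 3 in the authors' value table and 3 with 1 probe per gene name, always with 2 lower. The block called 0 higher and 2 lower with no filter on dim probes, and 0 and 0 without the intensity trend. Sst was the probe added by quantile normalization (adjusted p = 0.0388) and cyclic loess (0.0346), and Nts base 494 by normexp (0.043). Differences with the opposite sign were, for Npy, 0.0187 (quantile), 0.0723 (cyclic loess) and 0.0441 (authors' value table), with or without the block, and 0.19 without shCM1 replicate 2. Without shCTL replicate 2 and without shCM1 replicate 1 they were -0.34 and -0.36 for Sst, -0.16 and -0.13 for Penk base 1075, and -0.24 and -0.32 for Cck; for Tac1 it was -0.22 without shCM1 replicate 1. Over the 4 settings that leave out an array, the highest differences were 0.79 for Sst, 0.94 for Penk base 1075, 0.86 for Tac1 and 0.41 for Cck. Each of these leaves 1 array in a group, assumed to vary like the other arrays, and sets arrays of different slides against each other. Over all probes the block called 1176 higher and 988 lower, against 545 and 808 with quantile normalization, 369 and 603 with cyclic loess, 635 and 787 with normexp, 429 and 679 in the authors' value table and 107 and 248 with no filter. Lacking the intensity trend, the block called 0 of all probes in either direction. The 2 arrays per group limit the precision, and the signals of Crh and Penk base 130, although well above background, were dim enough for the background correction to change their differences.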
